A study of Homo sapiens with 4 samples.

Results

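The integrated stress response genes examined here are 32 named genes of the eIF2 and ATF4 pathway, taken by symbol from a list chosen by function, and all 32 were found among the 28277 genes of the count table. They were followed in NCI-H520, an established human lung squamous cell carcinoma line labelled WT, in RNA-seq libraries of total RNA. The Vehicle group (2 libraries) received ultrapure water, and the Hx1R8 group (2 libraries) received 10 µM Hx1R8, both for 12 h. The medium of both groups was RPMI-1640 supplemented with serum. The series is about breaking SOX2 self-association in drug-resistant squamous lung cancer, and the comparison shows which transcripts differ after Hx1R8. The composition of Hx1R8 is not stated by the labels.

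The integrated stress response starts when a kinase such as PERK (EIF2AK3) or GCN2 (EIF2AK4) phosphorylates the alpha subunit of the initiation factor eIF2 (EIF2S1). General translation then slows, while upstream reading frames let more ribosomes reach the ATF4 coding sequence. The ATF4 protein pairs with C/EBP family proteins and switches on genes for amino acid uptake, amino acid synthesis and feedback. Phosphorylation and protein levels were not measured in these libraries, so the data below concern transcripts only.

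Total counts lay between 17259403 and 20920857 per library, and 14482 genes passed the low-count filter, among them all 32 listed genes. SOX2 was abundant (638 TPM on average), but 2 of 10 squamous lineage markers (KRT14 and DSG3) had no reads, 6 of 10 stood above 1 CPM in every library, and TP63 was at only 0.431 CPM in Vehicle and 0.648 CPM in Hx1R8 on average. The 5 immune markers summed to 2.43 to 2.51 CPM in Vehicle and 1.51 to 2.15 CPM in Hx1R8, with PTPRC and CD3E at 0. The 5 markers of fibroblasts and endothelium summed to 9.25 to 9.54 CPM in Vehicle and 8.89 to 9.12 CPM in Hx1R8, mostly COL1A1 (8.19 and 7.74 CPM on average), with PECAM1 at 0. The 5 alveolar markers summed to 18.4 to 20.4 CPM in Vehicle and 18.5 to 18.7 CPM in Hx1R8, mostly NKX2-1 (10.2 to 12.9 CPM over the 4 libraries) and AGER (6.82 to 8.13 CPM), with SFTPC and NAPSA at 0. The part of these markers in the results was not tested. Vehicle replicate 2 stood apart over all genes: the median absolute log2 difference was 0.084 to 0.099 in pairs with it and 0.071 to 0.075 in the other pairs. CPM is a gene's count scaled to the total of its library, and TPM divides each count by exon length first, so only TPM is used to rank genes against each other. Values of a pair of libraries are given with replicate 1 before replicate 2.

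ATF4 and its partners recognise the C/EBP-ATF response element, whose core was searched as TGATGNAA on both strands (TTNCATCA on the opposite strand) in RefSeq promoter windows of GRCh38.p14, each from 250 bases before a gene's start to 50 after it. A window was given for 28 of the 32 genes. The core occurred in 7 of these 28 (25%), against 4.46% of all 27305 genes with a window. Both shares count a gene once over all its windows, and 3.62% of all 35116 windows had a match. The list was chosen by function and holds ATF4 targets, so its higher share is no independent result. A match describes letters and is not shown to be a bound site. The core of ASNS, SLC7A1 and SLC3A2 lies in listed exon bases of the gene itself, and that of the other genes does not. The stretches around the matches are printed 5′ to 3′ on the gene's strand, with the core in capitals, because they show which listed genes carry the element in this window.
CHAC1 (chr15:40953246-40953286, plus strand, core starting 209 bases before the RefSeq start, on the opposite strand): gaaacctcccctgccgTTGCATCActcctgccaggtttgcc
ATF3 (chr1:212565200-212565240, plus strand, core starting 191 bases before an inner start): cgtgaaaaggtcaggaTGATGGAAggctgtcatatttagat
CEBPG (chr19:33374055-33374095, plus strand, core starting 42 bases before an inner start): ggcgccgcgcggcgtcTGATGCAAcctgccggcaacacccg
SLC1A5 (chr19:46784887-46784927, minus strand, core starting 97 bases before an inner start): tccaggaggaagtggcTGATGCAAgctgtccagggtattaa
ASNS (chr7:97872458-97872487, minus strand, core starting 68 bases before an inner start): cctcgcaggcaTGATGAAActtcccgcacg
SLC7A1 (chr13:29595663-29595692, minus strand, core starting at base 8 after the start): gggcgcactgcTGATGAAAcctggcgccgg
SLC3A2 (chr11:62881725-62881748, plus strand, core starting at base 38 after an inner start, on the opposite strand): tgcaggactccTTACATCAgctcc

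The genes with the core ranged widely in abundance. SLC3A2 stood at 474 TPM on average over the 4 libraries, whereas CHAC1 stood at 11.5 TPM. ASNS stood at 1.61 TPM, a level that is uncertain because most of its exon bases are shared with another gene. Their log2 fold changes (Hx1R8 over Vehicle) ran from -0.091 (ATF3) to 0.042 (CEBPG), with a median of -0.021 and 6 of 7 below 0. The 21 genes with a window but no match had a median of -0.011, with 17 below 0. No listed gene of either kind passed the test described next.

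None of the 32 genes rose or fell after Hx1R8 at an adjusted p under 0.05 by edgeR's quasi-likelihood test over all genes tested. Among all genes tested, 0.0138% were called higher and 0.00691% lower. DESeq2 and limma-voom also called 0 of the 32, and 1 of them, CEBPB, had an unadjusted p under 0.05 by edgeR (3.12% of the list, against 3.39% of all genes tested). The median log2 fold change of the listed genes was -0.019, against -0.0018 over all genes tested, and 26 of 32 (81.2%) were below 0, against 51.1% of all genes. With 1 library left out, 18 (without Vehicle replicate 2), 19 (without Hx1R8 replicate 1), 22 (without Vehicle replicate 1) or 23 (without Hx1R8 replicate 2) were below 0, and the median moved from -0.041 without Vehicle replicate 1 to -0.0022 without Vehicle replicate 2. For 29 of the 32 genes the whole 95% interval of the difference lay inside 1.5-fold either way, and for 22 inside 1.2-fold (90.6% and 68.8%, against 81.4% and 57.6% of all genes tested). Above 10 CPM the shares inside 1.2-fold were close, 88% of 25 listed genes and 86.2% of all genes, and both were 100% inside 1.5-fold. The 3 genes with wider intervals were CEBPB, NUPR1 and GDF15. In bulk RNA, a change in the number of responding cells and a change in RNA per cell cannot be told apart.

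**Figure D1:**
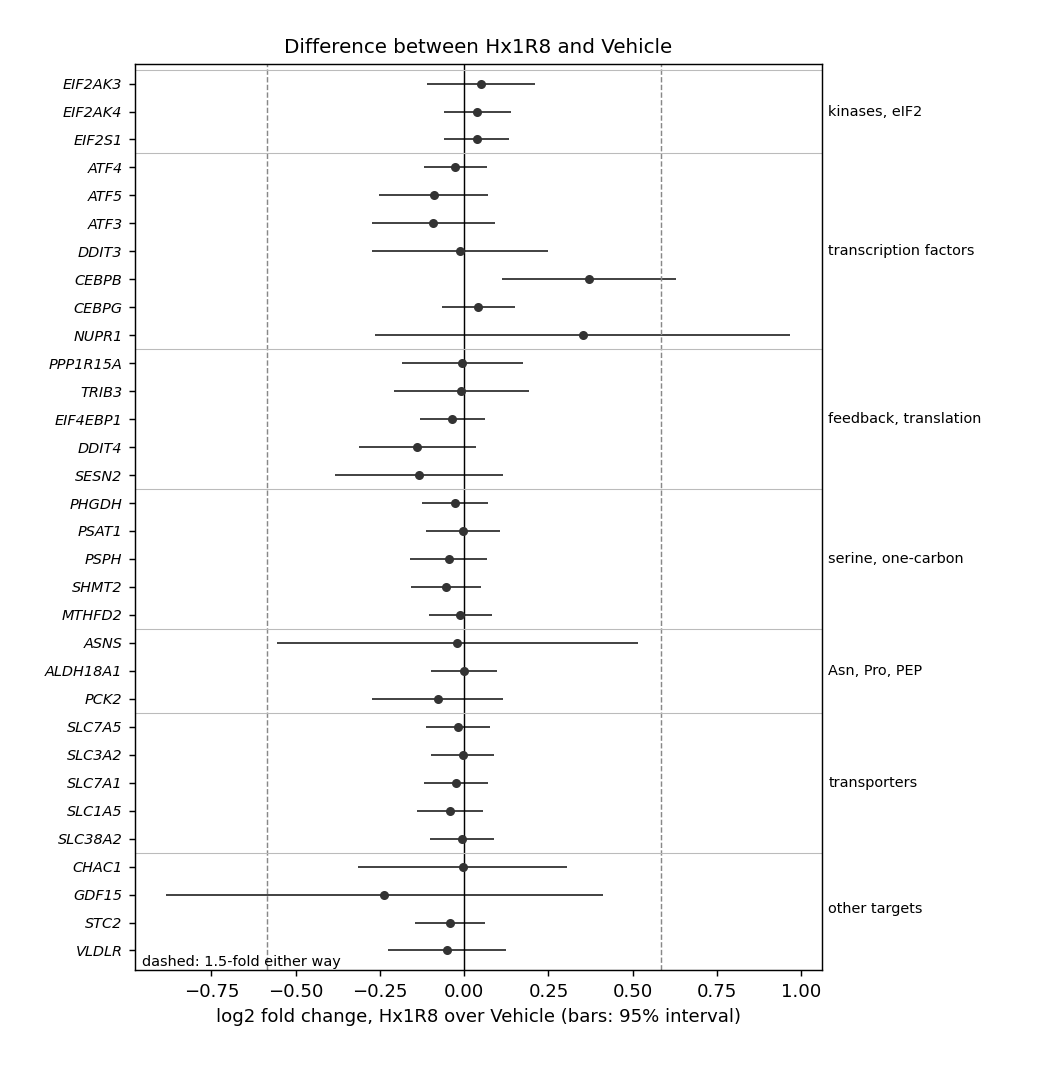
Log2 fold change of each of the 32 genes (x axis, Hx1R8 over Vehicle) with its 95% interval, ordered by role, from 2 libraries per group. All intervals except that of CEBPB cross 0, and those of CEBPB, NUPR1 and GDF15 reach past 1.5-fold (dashed lines).

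The kinases and eIF2 alpha were present at middling to high levels and close to equal in both groups. Per length EIF2AK3 stood at 16.9 TPM, above 46.2% of the genes tested, EIF2AK4 at 83.4 TPM and EIF2S1 at 237 TPM. EIF2S1 (eIF2 alpha, chromosome 14, 67360328 to 67386516) was at 324 and 306 CPM in the Vehicle pair and at 331 and 316 CPM in the Hx1R8 pair. EIF2AK4 (GCN2, the kinase that senses uncharged tRNA) was at 152 and 143 CPM in the Vehicle pair and at 152 and 151 CPM in the Hx1R8 pair. EIF2AK3 (PERK, the kinase of the endoplasmic reticulum) was at 26.5 and 24.5 CPM in the Vehicle pair and at 25.7 and 27.0 CPM in the Hx1R8 pair. In all 3 genes Vehicle replicate 2 was the lowest library, and the groups overlapped. Their log2 fold changes were 0.04 (SE 0.05) for EIF2S1, 0.04 (SE 0.05) for EIF2AK4 and 0.05 (SE 0.08) for EIF2AK3. Each turned to just below 0 without Vehicle replicate 2.

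ATF4 itself was among the most abundant transcripts of the list and close to equal in both groups. ATF4 (chromosome 22, 39520559 to 39522686) had 334 and 341 CPM in Vehicle and 335 and 328 CPM in Hx1R8, and the groups overlapped. Its log2 fold change was -0.03 (SE 0.05, adjusted p = 0.9999 by edgeR), and its fold had a 95% interval of 0.921 to 1.05. Per length it stood at 509 TPM, above 98.2% of the genes tested. ATF5, a related factor that is also controlled through upstream reading frames, was far scarcer, at 33.3 TPM. ATF5 was at 27.3 and 30.6 CPM in the Vehicle pair and at 28.8 and 25.7 CPM in the Hx1R8 pair (log2 -0.09, SE 0.08).

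DDIT3 and ATF3, stress-induced factors downstream of ATF4, stood at middling levels (21.9 and 23.8 TPM). DDIT3 (CHOP, chromosome 12, 57516588 to 57520517), the factor linked to cell death in prolonged stress, was at 7.54 and 9.25 CPM in Vehicle. In Hx1R8 it was at 8.19 and 8.45 CPM, both values inside the Vehicle range. Its log2 fold change was -0.01 (SE 0.13), with the fold between 0.828 and 1.19 (95% interval). ATF3, an early stress factor, was at 18.8 and 19.5 CPM in the Vehicle pair and at 18.9 and 17.2 CPM in the Hx1R8 pair (log2 -0.09, SE 0.09).

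CEBPB had the smallest unadjusted p of the listed genes. CEBPB encodes C/EBP beta, a bZIP protein that pairs with ATF4 (chromosome 20, 50190583 to 50192691). It was at 6.97 and 7.05 CPM in the Vehicle pair and at 9.12 and 9.02 CPM in the Hx1R8 pair, from counts of 122, 122, 157 and 189. Both Hx1R8 libraries lay above both Vehicle libraries, with within-group gaps of 0.017 and 0.016 on the log2 scale. Sampling error alone is larger than such gaps at these counts, so the gaps are no measure of the gene's spread. The log2 fold change was 0.37 (SE 0.13), with the fold between 1.08 and 1.55 (95% interval). It did not pass over all genes (unadjusted p = 0.0060, adjusted p = 0.9999 by edgeR), and no alternative called it. The unadjusted p depended on the tool, at 0.073 by DESeq2's Wald test and 0.0079 by limma-voom.

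The other C/EBP genes differed less than their spread. CEBPG, the more abundant dimer partner of ATF4, was at 92.9 and 88.1 CPM in the Vehicle pair and at 91.4 and 94.9 CPM in the Hx1R8 pair (log2 0.04, SE 0.05). CEBPA was at 5.75 ± 1.43 CPM without and 5.96 ± 0.21 CPM with Hx1R8 (SD, 2 libraries each, n = 2). CEBPD was at 15.1 ± 2.11 CPM without and 13.9 ± 0.52 CPM with Hx1R8 (SD, 2 libraries each, n = 2). The difference between CEBPB and these genes was not tested.

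NUPR1, a small stress-induced chromatin protein, was the scarcest listed gene per length at 0.755 TPM. It was at 0.972 and 1.33 CPM in the Vehicle pair and at 1.45 and 1.48 CPM in the Hx1R8 pair, from counts of 17, 23, 25 and 31. Both Hx1R8 libraries were above both Vehicle libraries, but the gap between the Vehicle libraries (0.45 on the log2 scale) exceeded the difference of the group means. Its log2 fold change was 0.35 (SE 0.30), with the fold between 0.832 and 1.96 (95% interval). NUPR1 is listed with 5345 exon bases, which lowers its TPM where only a shorter form is made.

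Genes that feed back on the pathway or restrain translation differed among themselves far more in level than between the groups. EIF4EBP1, a repressor of cap-dependent translation, stood at 702 TPM, whereas SESN2, a leucine sensor that restrains mTORC1, stood at 4.43 TPM. TRIB3, a pseudokinase that restrains ATF4, was at 16.0 and 16.5 CPM in the Vehicle pair and at 14.5 and 17.6 CPM in the Hx1R8 pair. PPP1R15A (GADD34), which directs the phosphatase to eIF2 alpha, was at 20.2 and 20.6 CPM in the Vehicle pair and at 22.0 and 18.9 CPM in the Hx1R8 pair. For both, the Hx1R8 libraries lay on either side of the Vehicle pair, with log2 fold changes of -0.0082 (SE 0.10) for TRIB3 and -0.0059 (SE 0.09) for PPP1R15A.

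DDIT4 (REDD1), an inhibitor of mTORC1, was at 21.0 and 21.4 CPM in the Vehicle pair and at 18.6 and 19.8 CPM in the Hx1R8 pair. Both Hx1R8 libraries were below both Vehicle libraries. Its log2 fold change was -0.14 (SE 0.09, adjusted p = 0.9999 by edgeR), with the fold between 0.805 and 1.02 (95% interval). SESN2 was at 9.66 and 11.2 CPM in the Vehicle pair and at 8.36 and 10.5 CPM in the Hx1R8 pair, so its groups overlapped (log2 -0.13, SE 0.12). EIF4EBP1 was at 188 and 193 CPM in the Vehicle pair and at 184 and 188 CPM in the Hx1R8 pair (log2 -0.04, SE 0.05), with the Hx1R8 libraries just below.

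Over the whole list, groups did not overlap for 6 genes. CEBPB and NUPR1 were higher in both Hx1R8 libraries, 2 of 32, where 14.7% of all genes tested were. EIF4EBP1, DDIT4, PSPH and GDF15 were lower in both, 4 of 32, where 15.2% of all genes tested were. Neither count stands above that background.

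The 5 serine and one-carbon genes were abundant, and none was called. All 5 intervals lay within 1.2-fold, as did those of 86.2% of all genes above 10 CPM. PHGDH, the first enzyme of serine synthesis (chromosome 1, 119711934 to 119744215), was at 407 and 451 CPM in the Vehicle pair and at 420 and 421 CPM in the Hx1R8 pair (log2 -0.03, SE 0.05). PSAT1, the next enzyme, was at 85.1 and 84.9 CPM in the Vehicle pair and at 86.6 and 83.3 CPM in the Hx1R8 pair (log2 -0.0028, SE 0.05). PSPH, which releases serine, was at 72.8 and 73.1 CPM in the Vehicle pair and at 69.2 and 72.0 CPM in the Hx1R8 pair (log2 -0.05, SE 0.06). Along this pathway the level fell per length from PHGDH at 702 TPM to PSAT1 at 119 TPM and PSPH at 84.4 TPM, with no overlap between neighbours in any library. The mitochondrial enzymes that move serine carbon onto folate were at 213 TPM (SHMT2) and 272 TPM (MTHFD2). SHMT2 was at 175 and 195 CPM in the Vehicle pair and at 177 and 180 CPM in the Hx1R8 pair (log2 -0.05, SE 0.05), both Hx1R8 values inside the Vehicle range. MTHFD2 was at 416 and 390 CPM in the Vehicle pair and at 396 and 404 CPM in the Hx1R8 pair (log2 -0.01, SE 0.05).

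ASNS, asparagine synthetase, stood out by how little was counted. ASNS had 27 and 34 reads in Vehicle and 27 and 39 reads in Hx1R8, or 1.54, 1.97, 1.57 and 1.86 CPM. At 1.61 TPM it lay above only 11.8% of the genes tested, while the other amino acid synthesis genes of the list, PCK2 aside, lay at 84.4 TPM or more. Of its 3326 exon bases (chromosome 7, 97851677 to 97928441), 32.4% belong to no other gene of the count table, and the rest are shared with the read-through gene CZ1P-ASNS. CZ1P-ASNS had 15 and 11 reads in Vehicle and 5 and 13 in Hx1R8. If reads on shared bases were left out of the count, dividing by the 1079 unshared bases alone gives ASNS 4.96 TPM. The labels do not state how shared reads were handled, so the level of ASNS is uncertain. The log2 fold change of ASNS was -0.02 (SE 0.26), with the fold between 0.680 and 1.43 (95% interval), and its sign turned with 1 library left out.

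The other enzymes of this role differed little between Vehicle and Hx1R8. ALDH18A1, the first enzyme of proline synthesis, was at 167 and 172 CPM in the Vehicle pair and at 169 and 169 CPM in the Hx1R8 pair, with a log2 fold change of -0.00073 (SE 0.05). PCK2, the mitochondrial PEP carboxykinase, was at 15.5 and 17.1 CPM in the Vehicle pair and at 15.7 and 15.2 CPM in the Hx1R8 pair (log2 -0.08, SE 0.10). Per length PCK2 stood at 7.82 TPM, against 143 TPM for ALDH18A1.

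Amino acid transporters were abundant (196 to 787 TPM). In all 5 both Hx1R8 libraries fell inside the span of the Vehicle pair, as in 24.5% of all genes tested. That pair includes Vehicle replicate 2, which stood apart over all genes. For SLC7A1 it rests on 580.9 CPM in Hx1R8 replicate 1 against 580.8 CPM in Vehicle replicate 1. SLC7A5 (LAT1, the large neutral amino acid exchanger) was the highest listed gene at 787 TPM, above 99.0% of genes tested, with 1121 and 1216 CPM in Vehicle and 1148 and 1161 CPM in Hx1R8 (log2 -0.02, SE 0.05). SLC3A2, the heavy chain that pairs with it, was at 414 and 435 CPM in the Vehicle pair and at 420 and 427 CPM in the Hx1R8 pair (log2 -0.0038, SE 0.05). SLC7A1, the cationic amino acid carrier, was at 581 and 620 CPM in the Vehicle pair and at 581 and 599 CPM in the Hx1R8 pair (log2 -0.02, SE 0.05). SLC1A5, a glutamine carrier, was at 263 and 289 CPM in the Vehicle pair and at 271 and 266 CPM in the Hx1R8 pair (log2 -0.04, SE 0.05). SLC38A2, a sodium-coupled neutral carrier induced by amino acid lack, was at 315 and 297 CPM in the Vehicle pair and at 305 and 303 CPM in the Hx1R8 pair (log2 -0.0076, SE 0.05). SLC38A2 was the transporter in which Vehicle replicate 2 was lower than replicate 1, and in the other 4 it was higher. All 5 intervals lay within 1.2-fold of no change, near the share of all genes above 10 CPM given before.

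The remaining targets were a glutathione-degrading enzyme, secreted factors and a lipoprotein receptor. CHAC1, which cleaves glutathione, was at 5.94 and 5.43 CPM in the Vehicle pair and at 5.11 and 6.16 CPM in the Hx1R8 pair (log2 -0.0036, SE 0.15), so the Hx1R8 pair spanned the Vehicle pair. GDF15, a secreted stress hormone, was at 1.31 and 1.21 CPM in the Vehicle pair and at 0.929 and 1.19 CPM in the Hx1R8 pair, from counts of 23, 21, 16 and 25. Its log2 fold change was -0.24 (SE 0.32), with the fold between 0.542 and 1.33 (95% interval), which reaches past 1.5-fold. STC2, a secreted glycoprotein, was at 116 and 112 CPM in the Vehicle pair and at 113 and 109 CPM in the Hx1R8 pair (log2 -0.04, SE 0.05). VLDLR, the receptor, was at 22.0 and 20.0 CPM in the Vehicle pair and at 20.3 and 20.3 CPM in the Hx1R8 pair (log2 -0.05, SE 0.09).

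**Figure D2:**
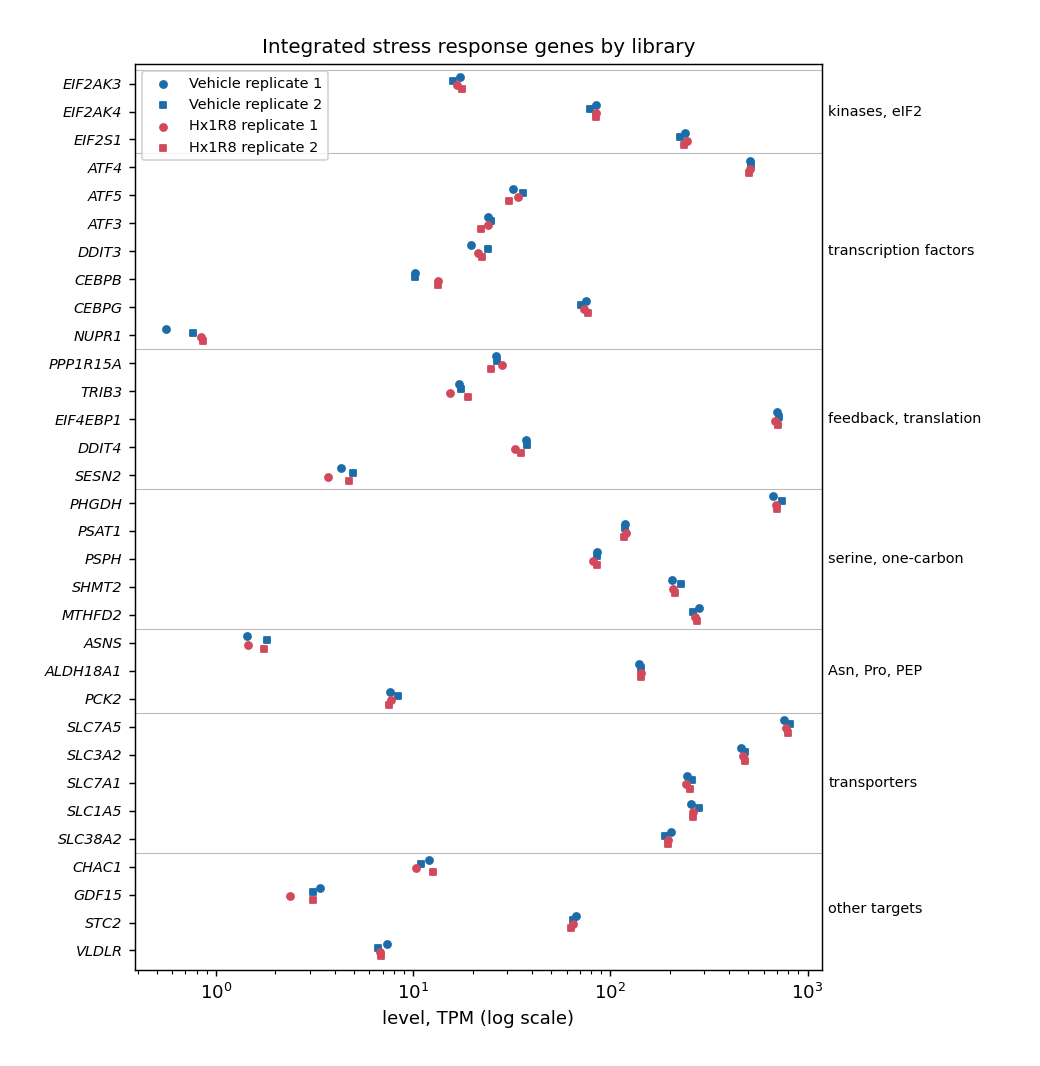
Level of each of the 32 genes in each library (x axis, TPM on a log scale), ordered by role, with blue for Vehicle, red for Hx1R8, circles for replicate 1 and squares for replicate 2. Levels run from 0.755 TPM (NUPR1) to 787 TPM (SLC7A5) on average, and the CEBPB libraries lie at 10.2 and 10.3 TPM in Vehicle against 13.3 and 13.3 TPM in Hx1R8.

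Ranked by TPM, the listed genes spanned nearly the whole range of tested genes. SLC7A5, EIF4EBP1, PHGDH, ATF4 and SLC3A2 led, and 13 genes stood above 100 TPM. SESN2, GDF15, ASNS and NUPR1 stood below 5 TPM. Of the 31 pairs of neighbours in this order, 20 did not overlap over the 4 libraries. EIF4EBP1 and PHGDH (702 TPM each) overlapped, as did the run of MTHFD2, SLC1A5, SLC7A1, EIF2S1 and SHMT2 from neighbour to neighbour, between 272 and 213 TPM. The other neighbours that overlapped were PSPH with EIF2AK4, DDIT4 with ATF5, PPP1R15A with ATF3, ATF3 with DDIT3, TRIB3 with EIF2AK3, and CEBPB with CHAC1.

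The spread within groups was as large as the difference between them for most listed genes. In 29 of 32 the larger within-group gap exceeded the difference of the group means, the exceptions being CEBPB, EIF4EBP1 and DDIT4. The same held for 81.2% of all genes tested. The median absolute log2 gap between the Vehicle libraries was 0.089 in the listed genes, against 0.045 between the Hx1R8 libraries and 0.039 between group means. In all genes tested these medians were 0.100, 0.072 and 0.054. Both Hx1R8 libraries fell inside the Vehicle range for 12 of 32 listed genes (37.5%), against 24.5% of all genes.

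Vehicle replicate 2 stood apart in the listed genes, with a wider contrast to the other pairs than over all genes. Over the listed genes the median absolute log2 difference was 0.086 to 0.089 in pairs with it and 0.040 to 0.050 in the other pairs. Over all genes these ranges were 0.084 to 0.099 and 0.071 to 0.075. Vehicle replicate 2 was above Vehicle replicate 1 in 21 of 32, against 49.3% of all genes tested, with a median log2 deviation from the mean of the 4 libraries of 0.035. The other 3 libraries had medians of -0.0053 (Vehicle replicate 1), -0.015 (Hx1R8 replicate 1) and -0.00096 (Hx1R8 replicate 2). By role, Vehicle replicate 2 had its highest median deviation in asparagine, proline and PEP synthesis (0.109, 3 genes), then in the transporters (0.059), and its lowest in the kinases and eIF2 (-0.063). The median absolute log2 difference over the listed genes was 0.040 between Vehicle replicate 1 and Hx1R8 replicate 1, below the 0.089 between the Vehicle libraries. Over all genes tested these differences were 0.075 and 0.099.

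**Figure D3:**
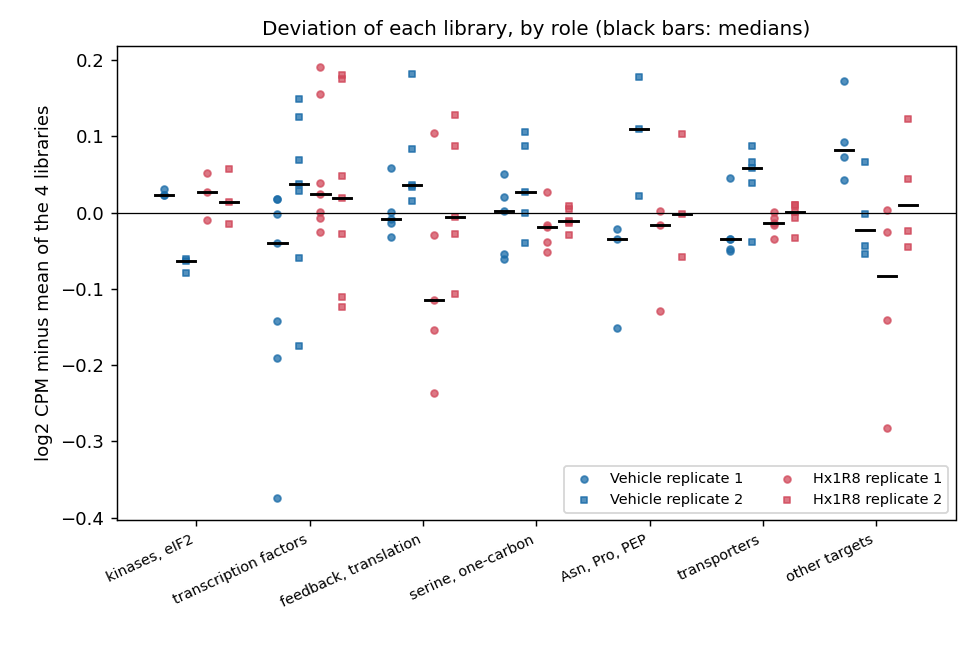
Deviation of each library from the mean of the 4 libraries (y axis, log2 CPM) for the listed genes, grouped by role, with 1 point per gene and library and black bars at the medians. Vehicle replicate 2 (blue squares) has its highest median in asparagine, proline and PEP synthesis (0.109) and its lowest in the kinases and eIF2 (-0.063).

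The rest of the pathway showed no called gene either. A further 20 genes of the eIF2 axis covered the remaining kinases, eIF2 and eIF2B subunits, phosphatases, other initiation factors and other regulators. Of these 20 genes, 0 were called in either direction by edgeR, 8 were below 0 and the median log2 fold change was 0.012. EIF2A, an alternative initiation factor, was at 137 ± 7.41 CPM without and 147 ± 2.92 CPM with Hx1R8 (SD, 2 libraries each, n = 2; log2 0.10, SE 0.05). EIF2S2, eIF2 beta, was at a log2 fold change of 0.05 (SE 0.05). The phosphatase gene PPP1CC was the most abundant of these per length, at 548 TPM.

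The 20 cytosolic tRNA synthetase genes, many of them ATF4 targets, were all bounded within 1.2-fold, with 0 called and a median of 0.0057. TARS1 was at 366 ± 3.65 CPM without and 378 ± 6.74 CPM with Hx1R8 (SD, 2 libraries each, n = 2; log2 0.05, SE 0.05) and was the most abundant at 363 TPM. QARS1 was at a log2 fold change of -0.06 (SE 0.06).

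Of 37 further ATF4 targets 33 were tested, 0 were called and the median was -0.0056, with 17 below 0. SLC38A7, a lysosomal amino acid carrier, was at 51.5 ± 1.07 CPM without and 47.4 ± 2.51 CPM with Hx1R8 (SD, 2 libraries each, n = 2; log2 -0.12, SE 0.06). ADM2, a secreted peptide gene, was at 4.77 ± 0.28 CPM without and 3.99 ± 0.11 CPM with Hx1R8 (SD, 2 libraries each, n = 2; log2 -0.26, SE 0.17). PYCR1, the last enzyme of proline synthesis, was the most abundant at 268 TPM.

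The IRE1 and ATF6 arms of the unfolded protein response, which share the PERK trigger but not ATF4, had 0 of 20 genes called and a median of 0.00074. XBP1 was at a log2 fold change of 0.10 (SE 0.06) and SEL1L at 0.08 (SE 0.05), and the chaperone HSP90B1 stood highest at 1043 TPM. Of 24 bZIP partners and regulators of ATF4, 21 were tested and 0 called, with a median of -0.0056. JUNB, at 25.1 ± 0.44 CPM without and 22.3 ± 0.16 CPM with Hx1R8 (SD, 2 libraries each, n = 2; log2 -0.17, SE 0.08), was the 1 gene of these 5 lists with an unadjusted p under 0.05 by edgeR. That is 4.76% of its list and 0% of the others, against 3.39% of all genes tested. FOSL1 was at a log2 fold change of -0.61 (SE 0.40), from means of 0.920 CPM in Vehicle and 0.595 CPM in Hx1R8. JUN was the most abundant at 209 TPM. NARS1 and DNAJC3 each stand in a pair of these lists, and DESeq2 and limma-voom called 0 genes of any of them.

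**Figure D4:**
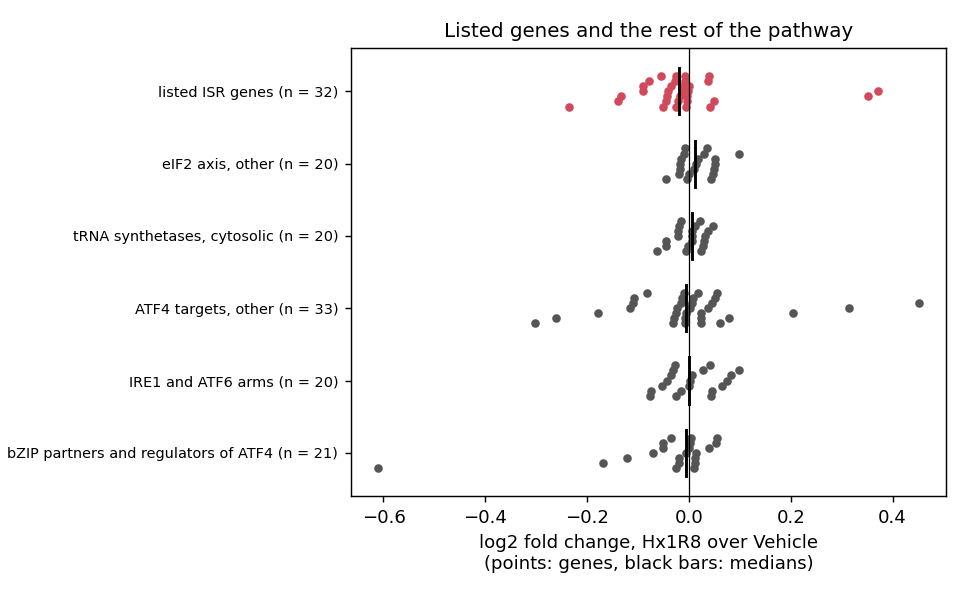
Log2 fold changes (x axis, Hx1R8 over Vehicle) of the 32 listed genes and of the tested genes of 5 related lists, with 1 point per gene and black bars at the medians. All medians lie between -0.019 and 0.012, and the points far from 0 include INHBE (0.45), CEBPB (0.37), NUPR1 (0.35) and FOSL1 (-0.61).

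Copies of listed genes took few reads. The pseudogenes MTHFD2P1 and SLC7A5P2 reached at most 5.29 and 2.91 CPM, against averages of 401 CPM for MTHFD2 and 1162 CPM for SLC7A5. ASNSP1 reached at most 0.349 CPM, against 1.73 CPM for ASNS. ATF5 shared a small part of its exon bases with MIR4751 (97.2% unshared), and besides ASNS no other listed gene shared any.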

How the data were processed

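The values used were counts of reads per gene, not normalized, as the authors deposited them for each of the 4 libraries. Exon coordinates and a summed exon length came with them as another column, per the file headers. The submitters' processing notes name STAR 2.7.9 and hg38. No source here names the counting tool, the annotation or the strand setting, so reads of a gene cannot be told from those of a gene on the opposite strand. The 2 lines of a broken row, which held 0 reads, were left out.

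The test was edgeR's quasi-likelihood test (edgeR 4.0.16, R 4.3.3) with TMM factors, filterByExpr and a term for group alone. It was two-sided, and p-values were adjusted by Benjamini-Hochberg over all 14482 genes tested, with a threshold of 0.05. CPM values were scaled by TMM factors, and TPM used the deposited exon length. Standard errors and 95% intervals came from the fit, which has 2 residual and 36.9 prior degrees of freedom. Deviations in log2 CPM used a prior count of 2. A floor of 3 counts corresponds to 0.143 to 0.174 CPM and covers counting error only. The test was checked on simulated counts.

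No label says that replicates were separate cultures. The p-values set each group difference against a spread estimated from these samples, with information shared across genes. That spread may be technical. Between every pair of libraries the counts differed by more than sampling noise (chi-square of 1.48 to 2.94 per gene). The genes and lists were chosen with earlier results of these data known. Genes given in full were the 2 with the smallest unadjusted p in each role, ATF4, DDIT3, TRIB3, CHAC1, ASNS and the highest and lowest per length. Of each related list, the 2 with the smallest p and the most abundant gene were named. Other genes of the list were added so that each was accounted for, and CEBPA, CEBPD, INHBE and CZ1P-ASNS were chosen after their values were seen. Alternatives were median-ratio factors, no low-count filter, DESeq2 1.42.0, limma-voom (limma 3.58.1), the replicate number as a block and leaving out each library.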

Additional observations from a re-analysis of the deposited data

How the results depend on the processing

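No listed gene was called under any of the 9 alternatives, all chosen together with the main design. The median log2 fold change of the listed genes stayed below 0: -0.018 with median-ratio factors, -0.015 without the low-count filter, -0.019 with DESeq2, -0.017 with limma-voom, and -0.041 to -0.0022 with 1 library left out. Of 288 recomputed log2 fold changes of single genes, 34 turned sign, 6 of them among the 160 with no library left out. These were ALDH18A1 at 0.00055 with median-ratio factors, 0.0035 without the filter and 0.00055 with DESeq2, and, without the filter, PSAT1 at 0.0015, SLC3A2 at 0.00049 and CHAC1 at 0.00086. The cause was not tested.

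With 1 library left out, 20 genes turned sign, over these ranges of log2 fold change: EIF2AK3 (-0.0016 to 0.11), EIF2AK4 (-0.0013 to 0.083), EIF2S1 (-0.0028 to 0.078), DDIT3 (-0.15 to 0.14), PPP1R15A (-0.11 to 0.10), TRIB3 (-0.17 to 0.12), SESN2 (-0.32 to 0.010), PHGDH (-0.10 to 0.050), PSAT1 (-0.028 to 0.026) and SHMT2 (-0.13 to 0.030). The others were MTHFD2 (-0.054 to 0.035), ASNS (-0.19 to 0.17), ALDH18A1 (-0.022 to 0.023), SLC7A5 (-0.074 to 0.045), SLC3A2 (-0.040 to 0.035), SLC7A1 (-0.071 to 0.025), SLC1A5 (-0.11 to 0.029), SLC38A2 (-0.047 to 0.035), CHAC1 (-0.15 to 0.12) and VLDLR (-0.12 to 0.020). The lone library of a group is then assumed to vary like the other group. Over all genes the calls rose from 2 higher and 1 lower to 41 and 38 without Vehicle replicate 1 and to 13 and 18 without Vehicle replicate 2, and were 2 and 5 without Hx1R8 replicate 1 and 5 and 1 without Hx1R8 replicate 2. The smallest adjusted p of a listed gene was then 0.147 (SHMT2, edgeR, without Vehicle replicate 1).

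The labels give same-numbered libraries no link beyond the number. Their deviations had r = 0.03 across 14482 genes, which are not independent replicates. This value cannot show whether they shared a culture or a preparation. With the replicate number as a block, 0 listed genes were called, the median was -0.021 and 26 were below 0. With 2 libraries per group, depth limits NUPR1, GDF15 and ASNS most.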
